A study of Mus musculus with 9 samples.

Results

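The matrix metalloproteinase (MMP) genes at the start of mouse chromosome 9 were followed through the bone marrow (BM) RNA-seq of 9 mice. The members were the rows named Mmp8, Mmp13, Mmp3, Mmp7, Mmp10, Mmp12, Mmp20, Mmp27, Mmp1a and Mmp1b, 10 of the 53172 rows of the deposited table. They were chosen by their position, and the pair Mmp8 and Mmp13 was selected on its counts in the groups compared here, so the levels and fold changes of the members are given as a description. No p-value is given for a member, and counts of members under a threshold are printed beside those of all genes and support nothing. The mice were C57BL/6J, and the recipients carried CD45.2 and were 16 weeks old at irradiation and transplantation. The libraries were made with poly(A) capture, and the table holds 1 column per mouse. BMT recipients (3 mice) were irradiated lethally with 9.5 Gy and infused with 500000 BM cells. The isoCDSCs-T recipients (3 mice, called CDSCs in the labels) had the same irradiation and 500000 cells freshly digested from the costal cartilage of neonatal donors marked by CD45.1 or ZsGreen. Health mice (3) were matched for age and were neither irradiated nor transplanted, and BM of the recipients was taken 2 weeks after transplantation. The donor BM came from neonatal or adult mice, also marked by CD45.1 or ZsGreen, and the labels do not say which recipient had which donor. According to the methods, beads split the marrow into CD45+ and CD45- fractions, which were sequenced in like amounts and merged at like depth, whereas the labels speak of all cells of the marrow. Which of these holds is not settled, so a column may be a merge of both fractions and a level here need not be that of unseparated marrow.

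MMPs are zinc-dependent proteases that are secreted as inactive proenzymes and cut the extracellular matrix once their propeptide is removed. Mmp8 and Mmp13 are collagenases, which can cut the intact triple helix of fibrillar collagens. Mmp8 is stored in the granules of neutrophils and its messenger RNA is made while these cells mature in the marrow, whereas Mmp13 is known from hypertrophic chondrocytes and osteoblasts. Mmp12 is the elastase of macrophages, Mmp3 and Mmp10 are stromelysins that also activate other MMPs, Mmp7 is matrilysin, Mmp20 is the enamelysin of teeth, and Mmp1a and Mmp1b are the mouse relatives of human interstitial collagenase.

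In the GENCODE annotation of GRCm38, the 10 genes lie at chr9:7272514-7699585, a stretch of 427.1 kb, in the order Mmp13, Mmp12, Mmp1b, Mmp3, Mmp1a, Mmp10, Mmp8, Mmp27, Mmp20 and Mmp7. On the plus strand lie 9 of them and on the minus strand 1, Mmp1b. Mmp13 spans chr9:7272514-7283331 and Mmp8 spans chr9:7558456-7568485. The annotated spans of Mmp12 (chr9:7344381-7369499) and Mmp1b (chr9:7368239-7388047) overlap on opposite strands, and the strand setting of the authors' counting is not given in the sources used here. Mmp1a is annotated as a polymorphic pseudogene.

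The start regions of Mmp8, Mmp13 and Mmp12 are shown because these 3 genes carry the differences between groups, and that of Mmp3 because it represents the members near 0. They are RefSeq sequences of GRCm38.p6, each from 250 bases before to 50 bases after a transcript start, on the plus strand: chr9:7558179-7558478 for Mmp8, chr9:7272264-7272563 for Mmp13, chr9:7347124-7347423 for the start of Mmp12 farther from Mmp13, and chr9:7445572-7445871 for Mmp3. Capitals mark letters that fit the AP-1, Runx, Ets or TATA motif, each searched on both strands, and no 2 of these matches overlap in the 4 sequences.
Mmp8: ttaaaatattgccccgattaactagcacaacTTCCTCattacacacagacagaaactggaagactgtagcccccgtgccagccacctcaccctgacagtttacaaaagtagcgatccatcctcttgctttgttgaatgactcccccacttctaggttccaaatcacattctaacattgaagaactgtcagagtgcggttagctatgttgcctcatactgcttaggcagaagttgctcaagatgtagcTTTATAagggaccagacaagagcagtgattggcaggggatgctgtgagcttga
Mmp13: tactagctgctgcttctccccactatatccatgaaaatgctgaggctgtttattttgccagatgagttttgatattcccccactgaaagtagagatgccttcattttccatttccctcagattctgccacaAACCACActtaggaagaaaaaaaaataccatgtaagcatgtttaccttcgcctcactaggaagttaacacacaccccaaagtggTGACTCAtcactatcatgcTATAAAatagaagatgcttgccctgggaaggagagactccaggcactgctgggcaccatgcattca
Mmp12: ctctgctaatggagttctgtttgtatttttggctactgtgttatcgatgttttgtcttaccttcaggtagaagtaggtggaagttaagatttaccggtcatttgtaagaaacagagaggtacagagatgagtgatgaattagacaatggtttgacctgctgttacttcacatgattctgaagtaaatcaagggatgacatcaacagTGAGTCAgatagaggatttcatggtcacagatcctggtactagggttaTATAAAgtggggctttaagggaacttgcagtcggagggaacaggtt
Mmp3: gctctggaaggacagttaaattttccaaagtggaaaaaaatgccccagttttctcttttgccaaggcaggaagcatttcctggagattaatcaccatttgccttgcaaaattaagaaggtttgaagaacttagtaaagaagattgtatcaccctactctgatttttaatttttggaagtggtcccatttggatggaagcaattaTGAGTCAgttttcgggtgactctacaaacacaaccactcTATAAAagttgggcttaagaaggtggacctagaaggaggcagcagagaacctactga

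The AP-1 motif was searched as TGAGTCA and its reverse complement. Its letters stood 35 bases before the start of Mmp13, 44 bases before this start of Mmp12 and 46 bases before that of Mmp3. They were present in 7 of the 12 start regions of the members, against 5.20% of the 32851 start regions in the table. The windows of Mmp8, Mmp27 and Mmp20 did not hold these letters, which says nothing of whether AP-1 acts on those genes. The Runx motif was searched as AACCACA and its reverse complement. These letters, found in 5.27% of all start regions, stood 119 bases before the start of Mmp13 and were also present in windows of Mmp27 and Mmp7. For the Ets motif, which PU.1 of myeloid cells can bind, GAGGAA and its reverse complement were searched. Such letters, found in 28.3% of all start regions, stood 219 bases before the start of Mmp8 and were also present in windows of Mmp12 (the other start), Mmp10 and Mmp7. TATAAA or its reverse complement occurred in 13.6% of all start regions and in each of the 4 shown. A match describes the letters and does not show a bound site.

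The 9 libraries held between 8741155 and 10181289 counts, so that 3 counts, taken as the smallest amount that can be read, corresponded to 0.287 to 0.358 CPM in a mouse (counts scaled to a common library total after TMM). The rows are known by name alone, and not every name held the reads that marrow would give it. Of 20 housekeeping genes, 13 had a mean under 10 counts, as had 17 of 20 neutrophil markers, 6 of 10 erythroid markers, 11 of 16 skeletal cell markers and 9 of 17 macrophage and osteoclast markers, and the defining genes S100a8, Camp and Hbb-bs were at 0 in every mouse. In the first 10 Mb of chromosome 9, 99.8% of the counts were on names of protein-coding genes, against 81.6% on the rest of the chromosome and 86.2% over all nuclear chromosomes, and there 18 of 34 coding rows but 1 of 42 other rows had a mean of at least 10 counts. The share was as high within 2 Mb of Cxcr2 (99.6%), Adgre1 (99.3%) and Retnlg (99.2%), whose own rows held at most 1 count in a mouse, so it does not show that the names in the cluster are right. All values are those of the row of that name. The part of the row names in any result was not tested.

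Of the 10 members, 8 had a count in at least 1 mouse and 4, Mmp8, Mmp13, Mmp12 and Mmp27, passed the filter on low counts, among 12572 genes that did. The other 6 were near 0. Mmp1b and Mmp20 had 0 counts in all 9 mice, which allows up to 0.0350 CPM over all mice, counting error alone considered. Mmp3 reached 3 counts, Mmp7 2 counts, Mmp10 4 counts and Mmp1a 2 counts in their highest mouse, and these 6 genes held 20 counts in all out of 85676859. At this depth the stromelysins, matrilysin, enamelysin and the Mmp1 pair could not be compared between groups.

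Mmp8, the neutrophil collagenase, was the most abundant member in every mouse and was lowest in the isoCDSCs-T recipients. The BMT mice had 35765, 31974 and 17924 counts, or 3881, 3308 and 1714 CPM. In the isoCDSCs-T mice there were 5696, 7925 and 3593 counts, or 557, 806 and 409.7 CPM. Health mice had 22193, 27107 and 38523 counts, or 2648, 2849 and 4069 CPM. Every isoCDSCs-T mouse lay below every mouse of the other groups, while BMT mouse 3 lay below all Health mice and the other BMT mice lay among them. The group means were 2968 ± 1123 CPM in BMT, 591 ± 200.05 CPM in isoCDSCs-T and 3189 ± 769 CPM in Health (SD, n = 3 each). The fitted level was 5.02-fold lower in isoCDSCs-T than in BMT (log2 fold change -2.33, SE 0.34) and 5.40-fold lower than in Health (-2.43, SE 0.34). Between BMT and Health it differed by -0.10 (SE 0.33), less than the spread of either group. In such bulk libraries, fewer cells that make Mmp8 and less Mmp8 RNA per cell cannot be told apart.

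Mmp13, the collagenase of cartilage and bone, ran the other way between the transplanted groups. Counts were 224, 179 and 210 in BMT, 900, 479 and 778 in isoCDSCs-T and 55, 142 and 53 in Health. In CPM these were 24.3, 18.5 and 20.1 in BMT, 88.1, 48.7 and 88.7 in isoCDSCs-T and 6.56, 14.9 and 5.60 in Health. The 3 groups did not overlap, with Health lowest, BMT between and isoCDSCs-T highest, and the lowest isoCDSCs-T mouse (mouse 2) and the highest Health mouse (mouse 2) stood apart from the others of their group. Means were 21.0 ± 3.00 CPM in BMT, 75.2 ± 22.9 CPM in isoCDSCs-T and 9.03 ± 5.13 CPM in Health (SD, n = 3 each). The fitted Mmp13 level in isoCDSCs-T was 3.58-fold that in BMT (log2 1.84, SE 0.35) and 8.29-fold that in Health (log2 3.05, SE 0.37). BMT stood 2.31-fold above Health (log2 1.21, SE 0.36), a difference that came to 1.78 on the log2 scale when Health mouse 2 was left out.

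Mmp12, the macrophage elastase, was near the floor in Health and present in both transplanted groups. It had 168, 233 and 198 counts in BMT, 567, 386 and 294 counts in isoCDSCs-T and 1, 5 and 15 counts in Health. The corresponding means were 20.4 ± 3.21, 42.7 ± 11.4 and 0.743 ± 0.756 CPM (SD, n = 3 each). No mouse of one group overlapped another group, and Health mouse 1 was under the floor of 3 counts. The fit placed Mmp12 at 2.09-fold in isoCDSCs-T over BMT (log2 1.07, SE 0.35), at 55.3-fold over Health (log2 5.79, SE 0.49) and, for BMT over Health, at 26.4-fold (log2 4.72, SE 0.48). The values against Health rest on 21 counts in 3 mice and ran from 5.32 (without Health mouse 1) to 6.94 (without Health mouse 3) for isoCDSCs-T and from 4.26 to 5.88 for BMT on the log2 scale when the same mice were left out. Mmp27, a membrane-bound stromelysin-like MMP next to Mmp8, had 60, 70 and 21 counts in BMT, 47, 92 and 66 in isoCDSCs-T and 42, 36 and 41 in Health. Its groups overlapped in each comparison, and its log2 differences were 0.45 (SE 0.43) for isoCDSCs-T over BMT, 0.71 (SE 0.43) for isoCDSCs-T over Health and 0.26 (SE 0.44) for BMT over Health.

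**Figure D1:**
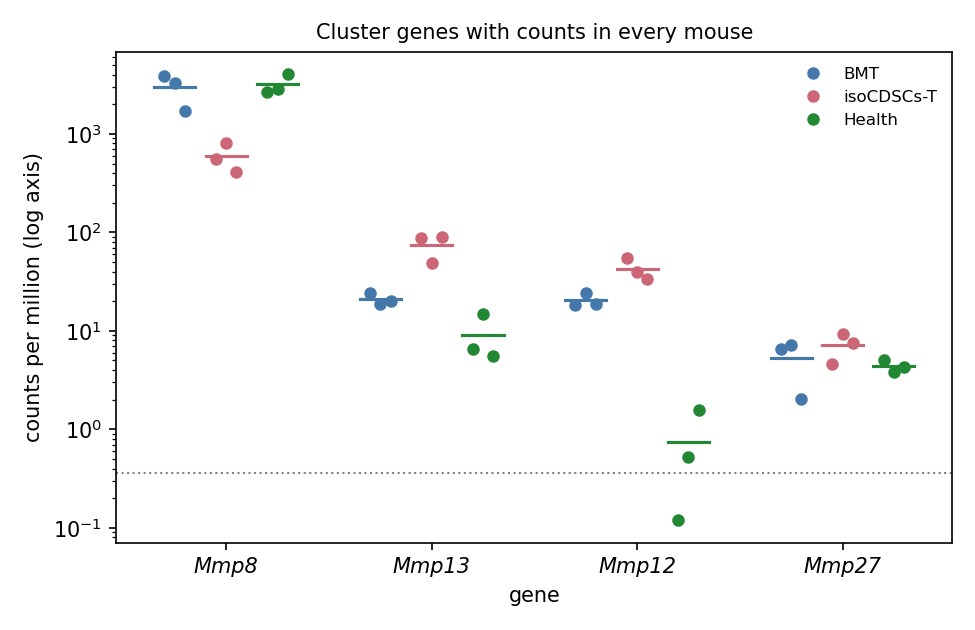
CPM (log axis) of the 4 members with counts in every mouse; each point is 1 mouse, short lines are group means of 3 mice and the dotted line is 3 counts in the library with the highest such floor (0.358 CPM). Mmp8 of the isoCDSCs-T mice sits between 409.7 and 806 CPM, below all others, whereas their Mmp13 sits between 48.7 and 88.7 CPM, above all others.

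These 3 comparisons share mice and are not independent of each other. With p-values of edgeR's quasi-likelihood test adjusted after Benjamini-Hochberg over all genes, 2 of the 4 members tested were under the threshold of 0.05 for isoCDSCs-T against BMT, where 1.03% of all genes were. Of these, 1 was higher (Mmp13, beside 0.326% of all genes) and 1 lower (Mmp8, beside 0.7%), and the mice of 3 of the 4 members did not overlap, as for 22.5% of all genes. For isoCDSCs-T against Health 3 members were under it beside 17.0% of all genes, 2 higher (Mmp13 and Mmp12, beside 8.69%) and 1 lower (Mmp8, beside 8.28%), and 3 did not overlap beside 34.2%. For BMT against Health 1 was under it beside 2.44% of all genes, Mmp12, which was higher (beside 0.994%), 0 were lower (beside 1.45%), and 2 did not overlap (Mmp13 and Mmp12) beside 29.1%. Unadjusted p-values under 0.05 and DESeq2 each gave 3 members for isoCDSCs-T against BMT (with Mmp12 in addition), 3 for isoCDSCs-T against Health and 2 for BMT against Health (with Mmp13 in addition, which was also under the threshold without the filter and without Health mouse 2). Over all genes, DESeq2 called 706, 2710 and 709 in these comparisons, and the share at an unadjusted p under 0.05 was not taken. Mmp12 passed the filter through the transplanted groups, where it is high, as 1 of the Health mice reached the 1.03 CPM it asks of 3 mice. As the members were chosen with these contrasts known, nothing is read from the counts. For isoCDSCs-T against BMT, Mmp8 stayed under the threshold in 7 of the 9 fits that left out 1 mouse and was lost without BMT mouse 1 or 2. Mmp13 stayed in 3 of 9 and was lost without any 1 of the BMT mice, without isoCDSCs-T mouse 1 or 2, or without Health mouse 1. Both were also lost with the replicate number as a block and with the 6 mice of these groups alone.

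Levels of different genes were compared in TPM, which divide by gene length. Mmp8 stood at 2699 ± 1003 TPM in BMT, 529.6 ± 189 TPM in isoCDSCs-T and 2724 ± 844 TPM in Health, and Mmp13 at 17.4 ± 2.72, 60.7 ± 17.6 and 6.84 ± 3.66 TPM (SD, n = 3 each). The TPM ratio of Mmp8 to Mmp13 was 176, 196.9 and 94.1 in the BMT mice, 6.98, 18.2 and 5.09 in the isoCDSCs-T mice and 444.8, 210.4 and 801.2 in the Health mice. The 3 groups did not overlap in this ratio, and its smallest gap was between BMT mouse 2 and Health mouse 2. Mmp8 made up 98.5% to 99.1% of the TPM summed over the 10 members in BMT and 99.3% to 99.7% in Health, but 80.4% to 92.2% in isoCDSCs-T, where Mmp13 made up 5.06% to 15.8%. The summed level was 1626 to 3599 TPM in BMT, 467 to 803 TPM in isoCDSCs-T and 2162 to 3703 TPM in Health, so it followed Mmp8.

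**Figure D2:**
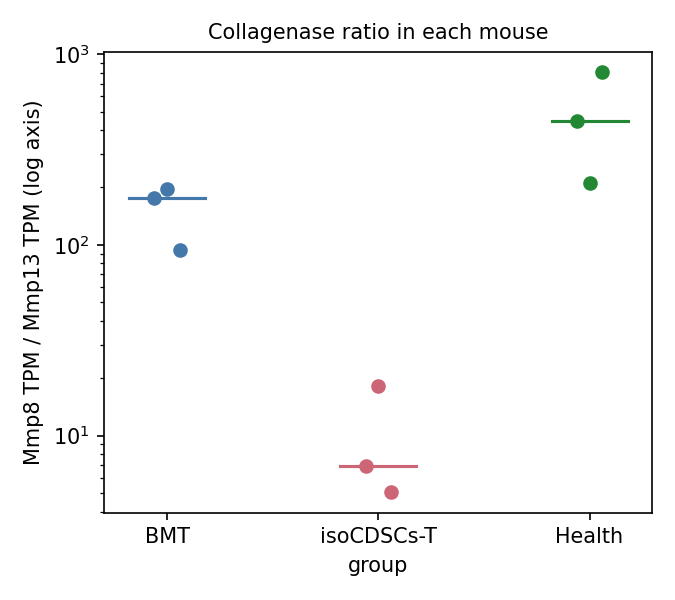
Ratio of Mmp8 TPM to Mmp13 TPM (log axis) in each mouse of BMT, isoCDSCs-T and Health; points are mice and lines are group medians. The isoCDSCs-T mice sit between 5.09 and 18.2, below the BMT mice at 94.1 to 196.9 and the Health mice at 210.4 to 801.2.

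The order below Mmp8 changed with the group on the TPM scale. In BMT, Mmp13 came next, and Mmp12 (6.23 ± 0.812 TPM) and Mmp27 (5.22 ± 2.75 TPM) did not differ beyond their spread. In isoCDSCs-T the order was Mmp13, Mmp12 (12.7 ± 2.78 TPM) and Mmp27 (7.09 ± 2.61 TPM), with no overlap between these genes. In Health, Mmp13 was followed by Mmp27 (4.06 ± 0.583 TPM), whose highest mouse had 4.47 TPM against 4.61 TPM in the lowest mouse for Mmp13, and Mmp12 was last (0.219 ± 0.234 TPM).

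The nearest protein-coding genes outside the cluster held counts in every mouse. Dcun1d5, the nearest protein-coding gene before Mmp13, differed by 0.20 (SE 0.12) on the log2 scale between isoCDSCs-T and BMT, and Tmem123, the nearest after Mmp7, by 0.29 (SE 0.14). In isoCDSCs-T against Health, these differences were 0.44 (SE 0.12, adjusted p = 0.0298, edgeR's quasi-likelihood test) for Dcun1d5 and 0.10 (SE 0.14) for Tmem123. Of 13 flanking genes tested, none was under the threshold for isoCDSCs-T against BMT (4 at an unadjusted p under 0.05, 1 by DESeq2) and none for BMT against Health (4 and 2). Some nearby rows had large differences from BMT in isoCDSCs-T without being under the threshold. Gm10709, which is not in the list, stood at 3.22 (SE 0.87) on the log2 scale, above the 1.84 of Mmp13, and Arhgap42 at 1.70 (SE 0.50), Pdgfd at 1.46 (SE 0.79) and Yap1 at 1.37 (SE 0.48). In the list, the mice of isoCDSCs-T and BMT did not overlap for Arhgap42, Yap1, Tmem123, Dcun1d5 and Casp12, all higher in isoCDSCs-T, and for Casp1, which was lower. The same held for 22.5% of all genes in either direction. For isoCDSCs-T against Health, 5 rose and 2 fell, or 53.8% beside 17.0% of all genes, with a list median of 0.27. That count of 7 came to 4 without Health mouse 1, to 3 without Health mouse 2 and to 4 with the 6 mice compared. The 5 of them with the lowest p were Casp1, an inflammatory caspase (-0.80), Yap1, a transcriptional coactivator of the Hippo pathway (2.69), Arhgap42 (2.53), Dync2h1, the heavy chain of the ciliary dynein (0.64), and Dcun1d5 itself. Yap1 and Arhgap42 had at most 89 and 65 counts in a mouse, and both passed the filter through groups where they are high, Yap1 with 1 Health mouse and Arhgap42 with none, so nothing is read from their calls or from the share above. The call of Dcun1d5 was kept in 5 of 9 fits that left out 1 mouse, being lost without isoCDSCs-T mouse 2 or 3 or Health mouse 1 or 2, and also without the filter, with the replicate block and with the 6 mice compared, while that of Dync2h1 was lost without Health mouse 1 or 2. The other 2, named after their values were seen, were Trpc6, a cation channel (-1.81), and Casp12, a caspase (1.24), each kept in 4 of 9 such fits and lost with the 6 mice compared, and that of Casp12 was also lost with the replicate block.

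**Figure D3:**
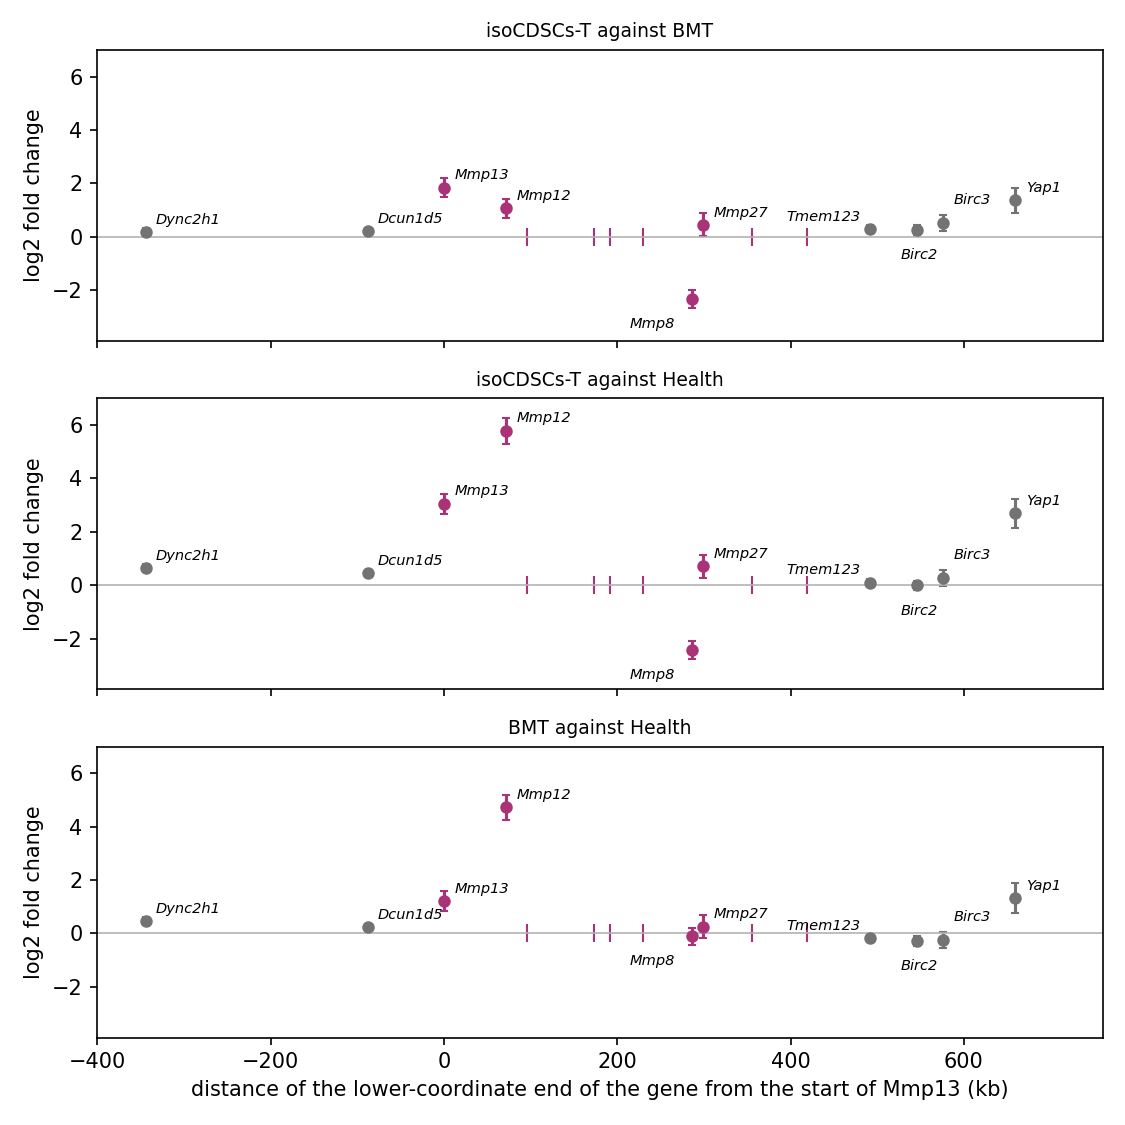
Log2 fold change with its SE (bars) of the cluster members (purple) and 6 nearby genes (grey) against the distance from the start of Mmp13 in kb, for the 3 comparisons; purple ticks at 0 mark members that were not tested. Mmp13 and Mmp12 lie above 0 and Mmp8 below in both comparisons of isoCDSCs-T, and against BMT the nearby genes drawn range from Dync2h1 (0.19) to Yap1 (1.37).

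The wider MMP system was examined by list, and each row is known by name. Of 13 other MMPs, 8 were tested and none was under the threshold for isoCDSCs-T against BMT by edgeR (2 at an unadjusted p under 0.05, 1 by DESeq2) or for BMT against Health (0 and 0). For isoCDSCs-T against Health 1 rose, or 12.5% of those tested beside 17.0% of all genes: Mmp19, an MMP of fibroblasts and myeloid cells, with 62, 53 and 28 counts in isoCDSCs-T, 8, 20 and 7 in BMT and 0, 4 and 10 in Health (log2 3.24, SE 0.72). This call was lost without Health mouse 2, its log2 difference ran from 2.70 (without Health mouse 1) to 4.38 (without Health mouse 3), and the list median was -0.08. Mmp19 passed the filter through the isoCDSCs-T mice, as 1 mouse of each other group reached the level asked, so nothing is read from its call. Mmp9, the gelatinase of neutrophils and osteoclasts, is named here after its values were seen, and stood at 31.9 ± 3.02 TPM in BMT, 32.0 ± 6.83 TPM in isoCDSCs-T and 31.3 ± 1.59 TPM in Health (SD, n = 3 each). Of 6 inhibitors, which include the TIMPs that block MMPs, 2 were tested, and of 11 activating proteases and their receptor and inhibitor, 4 were tested. In both lists edgeR called 0 genes in every comparison, as did DESeq2, with 0 at an unadjusted p under 0.05. Their log2 differences ran from -0.17 to 0.21 for the inhibitors and from -0.73 to 0.32 for the activating proteases.

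Of 12 collagen and matrix substrates, 7 were tested. The list median was 1.42 for isoCDSCs-T against BMT, where edgeR called 0 of the 7. All 7 had an unadjusted p under 0.05, a share not taken over all genes, and DESeq2 called 2 (Fn1 and Col11a2). Fn1 was lower in isoCDSCs-T than in BMT (log2 -1.61, SE 0.39), and the other rows tested were higher. The largest differences, of Col1a2 (2.74), Col5a2 (2.71) and Col3a1 (2.32), had overlapping mice. Within isoCDSCs-T, Col1a2 ran from 8889 to 140263 counts. Against Health, the list median was 1.63, and 1 gene rose and 1 fell (28.6% of those tested, beside 17.0% of all genes). These counts depended on single mice, since 5 of the 7 were called against Health without isoCDSCs-T mouse 3 or without Health mouse 2, and 2 against BMT without isoCDSCs-T mouse 3. Col11a2, a chain of the collagen XI of cartilage fibrils, had 50627, 23884 and 21013 counts in isoCDSCs-T, 9947, 11632 and 18886 in BMT and 9557, 11550 and 7701 in Health, a log2 difference from Health of 1.63 (SE 0.32, adjusted p = 0.00848, edgeR's quasi-likelihood test). Col11a1, another collagen XI chain of the list, had 0 counts in every mouse, and Col2a1 had at most 34. Col1a1 had at most 21 counts in a mouse, beside up to 140263 for Col1a2. The part of the row names in these levels was not tested. Fn1, the matrix glycoprotein fibronectin, fell, with 420, 244 and 830 counts in isoCDSCs-T, 1437, 1558 and 1792 in BMT and 6635, 6337 and 9410 in Health (log2 -3.93, SE 0.43, adjusted p = 0.000473, and -4.64 without isoCDSCs-T mouse 3). It was also lower in BMT than in Health (log2 -2.33, SE 0.40, adjusted p = 0.0144), the only call of this list in that comparison (14.3% of those tested, beside 2.44% of all genes, list median -0.01), and that call was lost without any 1 of the BMT mice or Health mouse 1.

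Mmp12 is a macrophage gene, and 3 of the 8 macrophage and osteoclast markers tested rose in both transplanted groups against Health, 37.5% of those tested beside 17.0% and 2.44% of all genes. Of these 3, Cd163 passed the filter on low counts through the transplanted groups, where it is high, as 1 Health mouse reached the level asked, so nothing is read from its calls or from this share. Of the other 5, 4 lay below 0 in isoCDSCs-T against Health, from -0.47 to -0.10 on the log2 scale, and Vcam1, an adhesion molecule, lay at 0.52. The lowest was Nfatc1, a transcription factor of osteoclasts (-0.47, SE 0.18), whose isoCDSCs-T mice all lay below the Health mice. Tnfrsf11a, the receptor RANK of osteoclast precursors, differed by -0.20 in isoCDSCs-T and by -0.40 (SE 0.14) in BMT against Health, and in BMT all mice lay below those of Health. These 5 did not pass the threshold, and those named among them were chosen after their values were seen. Mrc1, the mannose receptor of resident macrophages, had 445, 346 and 485 counts in isoCDSCs-T, 175, 304 and 244 in BMT and 21, 43 and 29 in Health (log2 3.72 and 2.86 against Health, edgeR adjusted p = 0.000128 and 0.000804). Cd163, the haemoglobin scavenger receptor, had 114, 81 and 134 counts in isoCDSCs-T, 49, 36 and 26 in BMT and 6, 7 and 12 in Health (log2 3.64 and 2.06 against Health). For both rows the order of the groups was that of Mmp12. Cd68, a lysosomal protein of macrophages that is named after its values were seen and was not called, did not follow that order, with 9.38 ± 0.745 CPM in BMT, 6.06 ± 2.24 CPM in isoCDSCs-T and 6.53 ± 1.70 CPM in Health (SD, n = 3 each). Every BMT mouse lay above every mouse of the other groups for Cd68 (log2 -0.62, SE 0.30, for isoCDSCs-T against BMT and 0.52, SE 0.30, for BMT against Health). Atp6v0d2, a proton pump subunit of osteoclasts and macrophages, had 545, 435 and 574 counts in isoCDSCs-T, 487, 610 and 585 in BMT and 30, 32 and 62 in Health (log2 3.59 and 3.66, edgeR adjusted p = 7.42e-05 and 0.000153), so its transplanted groups overlapped. For isoCDSCs-T against BMT, edgeR called 0 of the 8, with 2 at an unadjusted p under 0.05 (Mrc1 and Cd163), which DESeq2 called. The list medians were 0.21 and 0.54 against Health and -0.05 between the transplanted groups, and the call of Cd163 in BMT was lost with the replicate block and without BMT mouse 1 or 2 or Health mouse 1 or 2. The part of macrophage numbers in the level of Mmp12 was not tested.

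**Figure D4:**
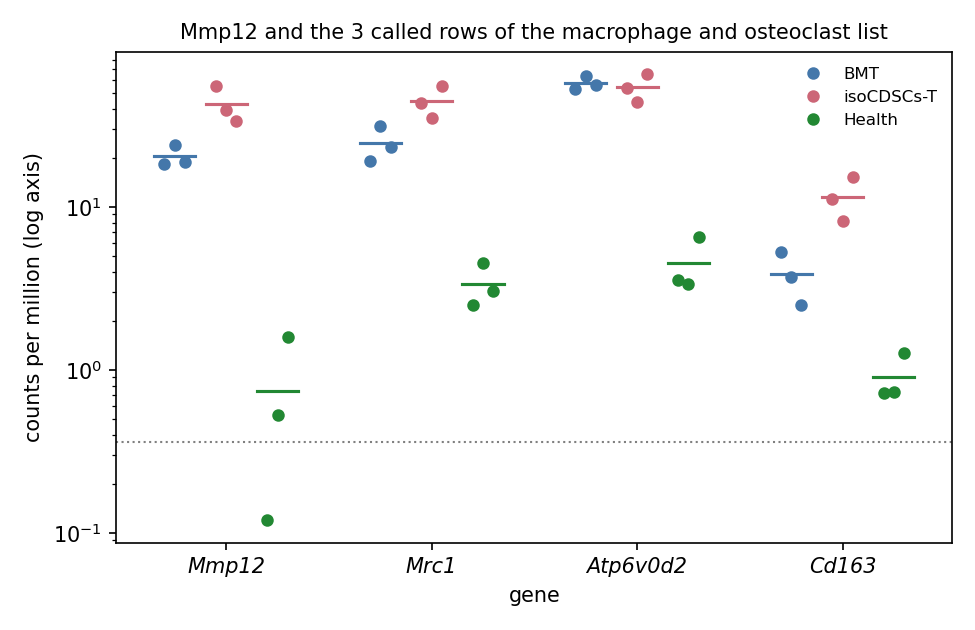
CPM (log axis) of Mmp12 and of Mrc1, Atp6v0d2 and Cd163, the rows of the macrophage and osteoclast list that were called; points are mice, short lines are group means and the dotted line is the highest floor of 3 counts. All 4 genes are lowest in the 3 Health mice, and Mmp12, Mrc1 and Cd163 are highest in the isoCDSCs-T mice.

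The list of neutrophil markers, which bears on Mmp8, could not be read in full because 4 of its 20 genes were tested. For isoCDSCs-T against BMT 0 were called by edgeR (2 at an unadjusted p under 0.05, 1 by DESeq2), with a list median of -0.84. The row that DESeq2 called, Fcnb, ficolin of neutrophil granules, is named after its values were seen and was higher in isoCDSCs-T, with 80, 24 and 38 counts against 9, 15 and 14 in BMT and 9, 23 and 24 in Health (log2 1.91 against BMT, SE 0.48, edgeR adjusted p = 0.0904). The other 3 tested had negative differences from BMT and were not called. Ltf, the other row with an unadjusted p under 0.05, differed by -1.51 (SE 0.50). Mcemp1 differed by -1.15 (SE 0.54) and Cd177, a surface protein of neutrophils, by -0.53 (SE 0.42), and the mice of both overlapped. Against Health 1 fell and 1 rose in isoCDSCs-T (2 of the 4 tested, beside 17.0% of all genes, median 0.17). Mcemp1, a mast cell and myeloid membrane protein, fell, with 3, 5 and 5 counts in isoCDSCs-T, 13, 4 and 13 in BMT and 18, 33 and 24 in Health (log2 -2.55, SE 0.51), and it passed the filter without any isoCDSCs-T mouse, so nothing is read from its call. Ltf, lactoferrin of the secondary granules, had 5, 4 and 5 counts in isoCDSCs-T, 16, 14 and 11 in BMT and 0, 1 and 0 in Health, and it was the 1 row under the threshold for BMT against Health (of the 4 tested, beside 2.44% of all genes, median -0.51) and the row that rose in isoCDSCs-T. Only the 3 BMT mice carried Ltf past the filter on low counts, so that it was tested at all because it is high there, and nothing is read from its calls against Health or from its difference from BMT. With Health at or below 1 count, no fold is given for Ltf, and its call in isoCDSCs-T was lost with the replicate block and without isoCDSCs-T mouse 2 or 3 or Health mouse 1 or 3, and in BMT without Health mouse 1. Cd177, named after its values were seen, stood at 1.52 ± 0.801 CPM in isoCDSCs-T, 2.20 ± 0.795 CPM in BMT and 2.89 ± 0.152 CPM in Health (SD, n = 3 each). Its isoCDSCs-T mice lay below the Health mice (log2 -0.92, SE 0.42, not called), and Fcnb differed from Health by 1.26 (SE 0.47, not called). All 4 rows had low counts, and the part of neutrophil numbers in the level of Mmp8 was not tested.

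The skeletal cell markers, which bear on Mmp13, gave 7 of 16 genes tested. For isoCDSCs-T against BMT edgeR called 0 of them (0 at an unadjusted p under 0.05, 0 by DESeq2, median 0.04), and for BMT against Health 0 (3 and 0, median -0.43). Against Health 1 fell in isoCDSCs-T (14.3% of those tested beside 17.0% of all genes, median -0.27): Chad, chondroadherin of cartilage matrix, with 17, 6 and 2 counts in isoCDSCs-T, 16, 11 and 19 in BMT and 54, 61 and 9 in Health (log2 -2.41, SE 0.74). Chad passed the filter on low counts through the BMT and Health mice, as 1 isoCDSCs-T mouse reached the level asked, so nothing is read from its call. That call held in 2 of 9 fits that left out 1 mouse, those without isoCDSCs-T mouse 1 (log2 -3.38) or Health mouse 3, and was lost with the replicate block, with library size without TMM and with the 6 mice compared. The part of skeletal cell numbers in the level of Mmp13 was not tested. Of 10 erythroid markers, 4 were tested, and Tfrc, the transferrin receptor, fell in isoCDSCs-T against Health (log2 -0.92, SE 0.23, edgeR adjusted p = 0.0252, 25.0% of those tested beside 17.0% of all genes, median -0.39), a call kept in 4 of 9 such fits and lost without BMT mouse 1, isoCDSCs-T mouse 3 or any 1 of the Health mice, and also without the filter, with the replicate block and with the 6 mice compared. Between isoCDSCs-T and BMT the erythroid list had 0 calls (0 at an unadjusted p under 0.05, 0 by DESeq2, median 0.04), and between BMT and Health 0 (1 and 0, median -0.45). Of 20 housekeeping genes, 7 were tested, and Gapdh, a glycolytic enzyme, was 0.95 (SE 0.17, edgeR adjusted p = 0.00546) higher on the log2 scale in isoCDSCs-T than in Health, the only call of the list there (14.3% of those tested beside 17.0% of all genes, median 0.0041). In the other comparisons edgeR called 0 housekeeping genes (0 at an unadjusted p under 0.05 and 0 by DESeq2 against BMT, 2 and 1 for BMT against Health).

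The genes outside the lists whose log2 CPM ran most like Mmp8 over the 9 mice were Sfxn5 (Pearson r = 0.989), Krt75 (0.987), Muc19 (0.984), Tmcc1 (0.983) and Gm50283 (0.983), and their mean levels were 18.3 to 192 CPM in BMT and 3.53 to 81.7 CPM in isoCDSCs-T. Those most like Mmp13 were Gm36346 (r = 0.991), C6 (0.984), Gm33472 (0.971), Frmd4b (0.965) and Shpk (0.964). Shpk, sedoheptulokinase, had a mean of 31.5 CPM in isoCDSCs-T, 6.24 in BMT and 0.729 in Health. These correlations run over mice that share groups and libraries and describe these 9 points. By Spearman's rank correlation, 2 of the 5 for Mmp8 and 0 of the 5 for Mmp13 were among the first 5.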

How the data were processed

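The authors trimmed the reads with Trim Galore, aligned them with HISAT2 and assigned them to genes with featureCounts. The submitters' processing notes name GRCm38, and the annotation release and strand setting are not given in the sources used here. The deposited counts are whole numbers per gene and the deposited TPM were made by the authors from them. The tables hold 0 other columns of per-sample values. Groups came from the labels. Levels are given as CPM on TMM-scaled libraries (edgeR 4.0.16, R 4.3.3) or as the authors' TPM. All 9 mice entered a single fit with group as the factor (filterByExpr, glmQLFit and glmQLFTest, two-sided, Benjamini-Hochberg over 12572 genes, threshold 0.05). The fit was tested on simulated data. DESeq2 1.42.0, unscaled library sizes, omission of the filter, the 6 mice compared, a replicate block, each mouse left out, TPM in place of CPM and scaling to the flanking genes were tried as alternatives. Positions and lengths came from GENCODE for GRCm38 and start regions from RefSeq, which matched all 10 members. Depth limits precision to the stated floor, which covers counting error only. Each column came from a different mouse.

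Of 8238 rows with at least 20 counts in every mouse and 1 annotated gene of that name, 95.2% had a count to TPM ratio that gave the annotated length of the named gene within a relative tolerance of 0.001. This shows which lengths were used and not which reads were counted. The members and all lists were chosen with earlier results of these data known. The genes named are all members, the called genes of each list (the 5 with the lowest p where more were called), the nearest flanking genes and the 5 genes outside the lists most like Mmp8 and Mmp13 by Pearson correlation of log2 CPM with a prior count of 2. Mmp9, Fcnb, Cd177, Trpc6, Casp12, Gm10709, Pdgfd, Cd68, Vcam1, Nfatc1, Tnfrsf11a, Col1a1, Col1a2, Col2a1, Col3a1, Col5a2 and the rows named for their counts near 0 fall outside this rule and were named after their values were seen.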

Additional observations from a re-analysis of the deposited data

How the results depend on the processing

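The log2 fold changes of Mmp8 and Mmp13 between isoCDSCs-T and each other group kept their direction under DESeq2, library size without TMM, no filter, the 6 mice compared, the replicate block, TPM, and scaling to the summed counts of the flanking genes, an alternative chosen after seeing the data. With 1 mouse left out, Mmp8 ran from -2.62 to -2.08 against BMT and from -2.72 to -2.22 against Health, and Mmp13 from 1.70 to 2.07 and from 2.79 to 3.62. BMT against Health ran from -0.31 to 0.21 for Mmp8, with a change of sign, and from 0.96 to 1.78 for Mmp13. The cause was not tested.

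The number of genes called depended more on the setting. For isoCDSCs-T against BMT it was 129, and 706 with DESeq2, 1260 without a filter on low counts, 22 with the replicate block and 7 with the 6 mice compared, and it ran from 2 without BMT mouse 1 to 491 without isoCDSCs-T mouse 3. For isoCDSCs-T against Health it was 2134, 1273 with the 6 mice compared, and 1071 (without Health mouse 1) to 2640 with 1 mouse left out. For BMT against Health it was 307, 709 with DESeq2, 948 without a filter, 197 with the replicate block, 807 with the 6 mice compared, and 102 to 681 with 1 mouse left out. The cause was not tested.

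Mice of different groups share only a replicate number. Deviations of same-numbered mice correlated between -0.34 and 0.22, and these are different animals. With the number as a replicate block, the log2 fold change between isoCDSCs-T and BMT was -2.33 for Mmp8 and 1.85 for Mmp13, and neither was then under the threshold. Among the named genes of the lists, the block also ended the calls of Ltf, Casp12, Dcun1d5, Chad and Tfrc for isoCDSCs-T against Health and of Cd163 for BMT against Health.

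Over the called genes of the lists, 265 of 321 alternative fits kept the call, 56 lost it and 0 reversed the direction, and 25 of 431 fits of those genes in the comparisons without a call gained one. Of 420 list counts under an alternative, 63 moved by over 1.5 times. The filter on low counts left 6 members untested.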
